A study of Mus musculus with 9 samples.

Results

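The early response genes Egr1, Egr2, Egr3, Ier2, Ier3, Klf2, Klf4, Klf6, Nr4a1 and Zfp36 were followed in hormone receptor positive (HR+) luminal cells of the mouse mammary gland through the first week of pregnancy. All probes annotated to these 10 genes were taken, 14 of the 45281 probes of the array, and 12 probes of 8 genes were bright enough to be tested. The cells came from female FVB mice (FVB/N in the study's methods) in 3 groups of 3 animals. These were virgin mice, described in the study as at metestrus, and timed-mated mice at day 3 and at day 7 of pregnancy. By the methods, virgin animals were in metestrus and 11 weeks old when labelled, which was 24 hours before harvest. The others were mated at 9 to 11 weeks, so that age was not matched exactly between the stages. Every animal, virgins included, had received EdU, a label of DNA synthesis, 24 hours before harvest. From each animal 1000 CD45- luminal cells with the Sca1 and CD49b profile of HR+ cells were sorted by flow cytometry after dissociation of the gland. The RNA equivalent of 167 of these cells was amplified in successive rounds and hybridised to an Illumina bead array of its own. In such bulk samples, fewer cells of a type and less RNA per cell cannot be told apart.

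Immediate early genes are transcribed within minutes of a growth factor or stress signal, without new protein synthesis, because the proteins that switch them on are already in the cell. The best known of these is the serum response factor, SRF, which binds the CArG box together with ELK proteins that are phosphorylated by the ERK kinases. EGR1, EGR2 and EGR3 are zinc finger transcription factors that bind a GC-rich site, and NAB1 and NAB2 are corepressors that hold them in check. KLF2, KLF4 and KLF6 belong to another zinc finger family, which binds GC-rich and CACCC sequences and whose members are known for roles in cell division and differentiation. ZFP36, or tristetraprolin, brings about the decay of mRNAs that carry AU-rich elements. IER3 modulates cell survival, IER2 is a nuclear protein and NR4A1 is an orphan nuclear receptor. In the mammary gland such genes respond to ligands of the EGF receptor. They are also known to be induced while tissue is dissociated into single cells, a step shared by all 3 groups here. The part of this step in the differences between stages was not tested.

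The promoters of Klf4, Klf2, Klf6 and Zfp36 are shown because these 4 genes passed the test in at least 1 comparison. Each sequence holds the 250 bases before the gene's start in RefSeq on build GRCm38.p6, read 5′ to 3′ on the strand of the gene, with EGR sites and the CArG box in capitals. The window of Klf4 is chr4:55532476-55532725 on the minus strand, that of Klf2 is chr8:72318812-72319061 on the plus strand, that of Klf6 is chr13:5861239-5861488 on the plus strand and that of Zfp36 is chr7:28379229-28379478 on the minus strand.
Klf4: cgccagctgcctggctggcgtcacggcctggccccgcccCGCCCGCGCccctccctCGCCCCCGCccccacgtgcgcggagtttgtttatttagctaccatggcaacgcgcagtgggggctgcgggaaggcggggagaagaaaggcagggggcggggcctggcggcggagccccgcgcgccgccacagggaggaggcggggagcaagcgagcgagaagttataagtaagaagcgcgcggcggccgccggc
Klf2: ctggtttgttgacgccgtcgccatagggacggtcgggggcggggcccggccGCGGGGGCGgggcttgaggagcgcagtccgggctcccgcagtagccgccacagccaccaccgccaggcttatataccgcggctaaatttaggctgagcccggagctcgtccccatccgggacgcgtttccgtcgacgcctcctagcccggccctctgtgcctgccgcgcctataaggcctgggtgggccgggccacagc
Klf6: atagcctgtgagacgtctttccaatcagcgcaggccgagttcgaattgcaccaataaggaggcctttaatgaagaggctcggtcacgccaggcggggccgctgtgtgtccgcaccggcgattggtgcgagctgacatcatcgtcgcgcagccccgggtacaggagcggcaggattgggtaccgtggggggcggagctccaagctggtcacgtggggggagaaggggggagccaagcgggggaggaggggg
Zfp36: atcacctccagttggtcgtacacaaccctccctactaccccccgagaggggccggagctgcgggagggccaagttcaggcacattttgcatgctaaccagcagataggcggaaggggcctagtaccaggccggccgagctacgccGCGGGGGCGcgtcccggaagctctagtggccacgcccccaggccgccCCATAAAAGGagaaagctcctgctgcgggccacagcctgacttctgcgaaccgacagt

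Motifs were searched on both strands and comprised the EGR site GCGNGGGCG, where N is any base, the GC box GGGCGG, the cAMP response element TGACGTCA and the CArG box. Of the 10 genes, 7 had a promoter entry (Egr2, Ier3, Klf2, Klf4, Klf6, Nr4a1 and Zfp36). An EGR site was found in 4 of these 7 (Klf2, Klf4, Nr4a1 and Zfp36), while 4.7% of all 32851 promoter windows of this length held it. In Klf4 it occurred at 203 to 211 and again at 186 to 194 bases before the start, in Klf2 at 191 to 199 bases and in Zfp36 at 97 to 105 bases. The EGR sites of Klf2, Klf4 and Nr4a1 overlapped a GC box, a motif that was present in all 7 genes and in 32.7% of all windows. A CArG box was found in Egr2 and Zfp36, against 1.47% of all windows. These shares are per window, while Egr2 has 5 entries, of which 4 held a CArG box and 2 a GC box. In Zfp36 it lay 49 to 58 bases before the start and shared its outermost base with a GC box. The cAMP response element, present in 1.55% of all windows, was in none of the 7. These are matches of letters within the window, and binding was not measured.

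Levels are given as the log2 signals of the deposited quantile normalised table, in which 1 unit is a doubling and the background signal of 100 lies at 6.64. They compare animals for a given probe, and levels of different genes are not comparable because probes differ in brightness. A probe was tested if its mean reached the background in at least 1 group. A gene is represented by its brightest tested probe, and it was called when its fold change was 2 or more with an adjusted p of 0.10 or less in limma, adjusted over all 18707 probes tested. With 3 animals in each group the number of arrays limits the precision, and an exact permutation test of 3 against 3 cannot give a p under 0.10.

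Before normalisation the arrays differed in brightness between the stages. The mean raw signal was 284 to 316 on the virgin arrays, 353 to 520 on the day 3 arrays and 348 to 440 on the day 7 arrays. Of the 9 HR+ luminal markers with a named probe, 8 or 9 reached the background in each group, including Krt8, Krt18, Foxa1 and Pgr. Their summed signal was 32923 to 46437 in virgin animals, 30222 to 31393 at day 3 and 25987 to 27012 at day 7. Pgr was called lower at both days (-1.18 and -1.13) and Foxa1 at day 7 (-1.26). The other tested probe of Pgr was not called (-0.08 and -0.39). Tnfsf11 was called higher at both days (2.25 and 4.04), Cited1 at day 3 (1.36) and Wnt4 at day 7 (1.01, with its other probe at 0.36 and not called). Esr1 stayed between 6.54 and 7.13, close to background. Ptprc, which encodes CD45, was below background in all groups. The summed signal of 10 HR- luminal markers was 5098 to 9625 in virgin animals, 1715 to 3063 at day 3 and 1703 to 4845 at day 7. Among these markers Csn3 was called lower at both days (-2.79 and -2.69). Csn2 (2.54) and Wap (1.29) were called higher at day 7, from below background in virgin animals. The sum of 10 basal markers was 1016 to 1963 in virgin animals, 1615 to 4897 at day 3 and 3429 to 13561 at day 7. Krt17 was called higher at both days (2.83 and 3.66) and Trp63 at day 7 (1.86). Krt14 (3.03), Acta2 (1.93), Mylk (0.34), Cnn1 (-0.06) and Lgr5 (-0.17) were not called at day 7. Krt5, Myh11 and Oxtr were below background throughout. For 4 erythroid markers the sum was 446 to 472 in virgin animals, 889 to 1244 at day 3 and 1833 to 6012 at day 7. Hba-a1 was called higher at both days (2.45 and 3.55), and Hbb-bt (2.17) and Hbb-bs (3.17) at day 7. For 8 macrophage markers the sum was 981 to 2401, 750 to 826 and 1603 to 1937 at the same stages. Lyz1 (-2.23) and Lyz2 (-1.21) were called lower at day 3, and neither was called against virgin animals at day 7. The sum of 8 fibroblast markers was 2724 to 3540 in virgin animals, 3186 to 3712 at day 3 and 1087 to 1317 at day 7. Dcn was at -2.24 at day 7 against virgin animals, and its other probe was at -0.91 and not called. Col1a2 (-0.11), Col3a1 (0.07), Pdgfra (0.01) and Fbln1 (0.22) were not called at day 7, and Fbln1 was called higher at day 3 (1.50). Col1a1, Lum and Dpt were below background in all groups. The part of array brightness and of these markers in the differences between stages was not tested.

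Of the 8 tested genes, 3 were called lower in HR+ cells of day 3 pregnant than of virgin animals, namely Klf2, Klf4 and Klf6, and none was called higher, while 3.00% of all 11261 genes tested were called lower and 2.82% higher. At day 7, Klf2, Klf4 and Zfp36 were called lower and none higher, beside 3.72% of all genes lower and 3.54% higher. Virgin and pregnant animals did not overlap for 5 of the 8 genes at day 3 (Egr3, Klf2, Klf4, Klf6 and Zfp36), against 17.2% of all genes in that direction, and for 5 at day 7 (Egr1, Ier3, Klf2, Klf4 and Zfp36), against 17.1%. All 8 differences lay below 0 at each day under quantile normalisation, but with each array scaled to its median instead, Egr2 and Ier3 lay above 0 at day 3 and Egr2 at day 7. Their median was -0.84 at day 3 and -0.80 at day 7, against -0.01 over all genes at both days. Median scaling moved the median of all genes to 0.26 at day 3 and 0.23 at day 7 and that of the 8 genes to -0.29 and -0.37. It left 1 of the 8 called lower at day 3 (Klf4) and 2 at day 7 (Klf2 and Klf4), where over all genes 87 were lower and 1513 higher at day 3 and 176 lower and 1324 higher at day 7. Both comparisons use the same 3 virgin arrays.

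**Figure D1:**
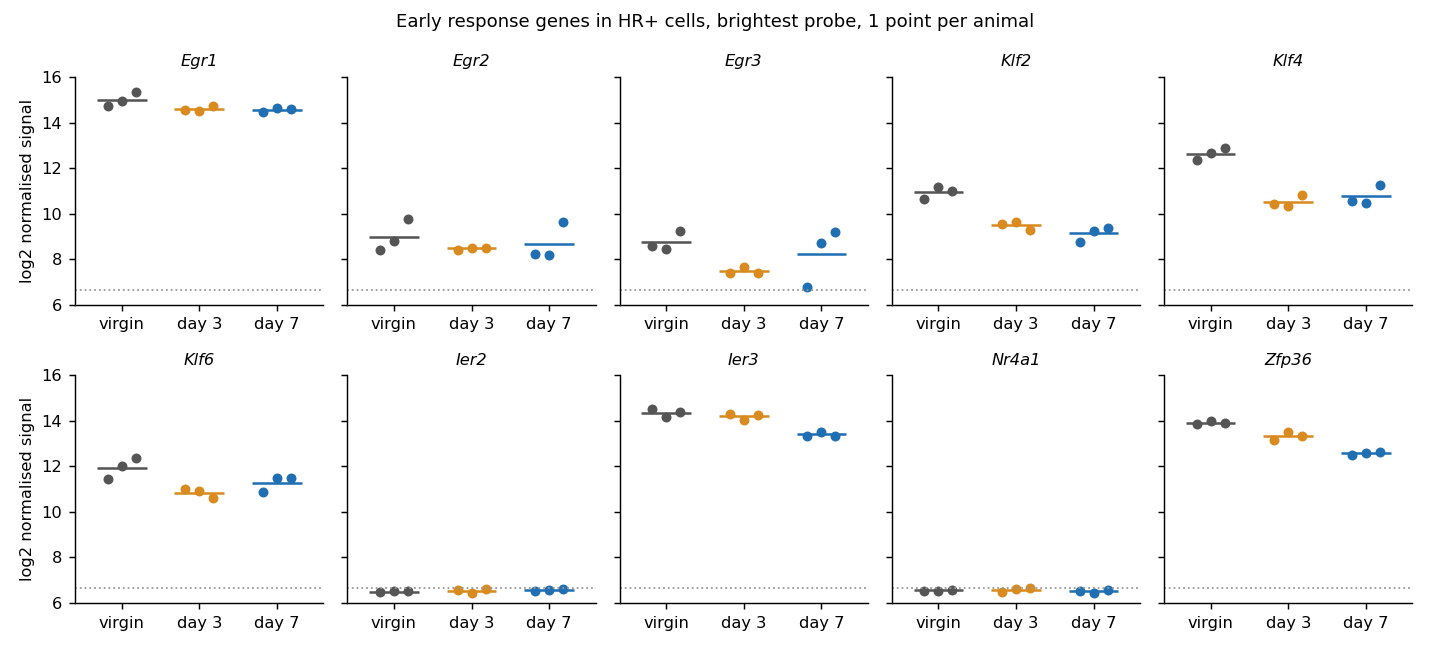
The log2 normalised signal of the brightest probe of each gene is plotted for each animal, with a line at the group mean and a dotted line at the background of 6.64. Klf2 and Klf4 lay lower in all pregnant animals than in all virgin animals, Ier3 and Zfp36 were lowest at day 7, and Ier2 and Nr4a1 lay along the background.

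Klf4, which in the intestinal epithelium slows the cell cycle and favours differentiation, had the largest difference of the 8 genes at day 3, while at day 7 it and Klf2 differed by less than their standard errors. Its brightest probe, ILMN_2999439, was at 12.34, 12.66 and 12.89 in the virgin animals, at 10.42, 10.32 and 10.83 at day 3 and at 10.57, 10.47 and 11.25 at day 7. All pregnant animals were lower than all virgin animals. At day 3 Klf4 fell by 2.11 on the log2 scale, a fold of 4.30 with a standard error of 0.24 (limma, adjusted p = 0.00075). At day 7 it fell by 1.87, a fold of 3.65 (limma, adjusted p = 0.0011). The raw signals were apart too, at 3899 to 6472 in virgin animals, 1668 to 2308 at day 3 and 1488 to 3075 at day 7. Under median scaling Klf4 was called at both days, at -1.49 and -1.32. Its difference of day 7 from day 3 was 0.24, with a 95% interval of -0.30 to 0.77.

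Klf4 has 2 further probes of low signal. ILMN_1241903 was at 7.58 ± 0.26 in virgin animals, 6.42 ± 0.11 at day 3 and 6.93 ± 0.10 at day 7 (SD, n = 3 each). It was called at day 3, where all 3 arrays lay under background and the level was at least 1.92-fold lower than in virgin animals (adjusted p = 0.00092 from limma), and was not called at day 7, at -0.65. ILMN_1221264 was under background on all 3 day 3 arrays, where it was at least 1.56-fold lower than in virgin animals (adjusted p = 0.037 from limma), and at -0.62 at day 7, and it was not called at either day.

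Klf2, best known from endothelium and T cells, where it maintains quiescence, was at 10.65, 11.16 and 11.00 in the virgin animals, at 9.54, 9.61 and 9.29 at day 3 and at 8.77, 9.25 and 9.37 at day 7. Virgin and pregnant animals did not overlap. At day 3 Klf2 fell by 1.46, a fold of 2.74 with a standard error of 0.19 (limma, adjusted p = 0.0015). At day 7 it fell by 1.81, a fold of 3.50 (limma, adjusted p = 0.00039). Median scaling gave -0.75 at day 3, which was not called, and -1.22 at day 7, which was. The raw signal of day 3 replicate 1, at 1270, was above that of virgin replicate 1, at 1162, whereas the 3 day 7 arrays, at 576 to 843, lay below all virgin arrays. The summed signal of 8 endothelial markers was 1963 to 2824 in virgin animals, 1696 to 2209 at day 3 and 4155 to 6339 at day 7. Of the 7 tested, Vwf alone was called at day 7, as higher (1.55), and 2 lay below 0, Eng (-0.44) and Kdr (-0.10). Cdh5 was below background in all groups. The part of these markers in the differences of Klf2 was not tested.

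Klf6, a widely expressed member of the family, was at 11.43, 12.00 and 12.38 in the virgin animals, at 10.99, 10.93 and 10.62 at day 3 and at 10.88, 11.48 and 11.50 at day 7. The day 3 animals lay below all virgin animals, while the day 7 animals overlapped them. At day 3 Klf6 fell by 1.09, a fold of 2.13 with a standard error of 0.25 (limma, adjusted p = 0.022). Leaving out virgin replicate 3 ended the call (-0.87), as did leaving out day 3 replicate 3 (-0.97) or scaling to the median (-0.47). At day 7 the difference was -0.65, with a 95% interval of -1.23 to -0.07 and an adjusted p of 0.12 from limma. The other probe of Klf6, at 6.54 to 6.77, was near background on all arrays and was not called.

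The 3 EGR genes did not pass the test at either day. Egr1, the family member that responds most widely to growth factors, was at 14.71, 14.97 and 15.34 in the virgin animals, at 14.56, 14.52 and 14.73 at day 3 and at 14.47, 14.63 and 14.58 at day 7. The probe lay between the percentiles 99.8 and 99.97 of the tested genes on each array, 0.24 to 1.11 below the brightest probe. The difference was -0.41 at day 3 (95% interval -0.75 to -0.06, adjusted p = 0.12 from limma) and -0.45 at day 7 (95% interval -0.79 to -0.10, adjusted p = 0.079 from limma), and under median scaling these were -0.08 and -0.10. The raw signals of the stages overlapped, at 22098 to 38170 in virgin animals, 26057 to 33656 at day 3 and 24403 to 31148 at day 7. How far the upper end of the signal range limits the differences of Egr1 was not tested.

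Egr2, known from Schwann cells and from the hindbrain, was at 8.41, 8.78 and 9.75 in the virgin animals, at 8.41, 8.51 and 8.49 at day 3 and at 8.21, 8.20 and 9.61 at day 7. All 3 stages overlapped, and virgin replicate 3 and day 7 replicate 3 stood above the others. The difference was -0.51 at day 3 (95% interval -1.47 to 0.45) and -0.31 at day 7 (95% interval -1.26 to 0.65), intervals that leave room for folds of over 2. Egr3 was at 8.59, 8.45 and 9.25 in the virgin animals, at 7.41, 7.66 and 7.41 at day 3 and at 6.76, 8.72 and 9.17 at day 7. All day 3 animals were lower than all virgin animals, while the day 7 animals ranged from near background to the level of the virgin animals. At day 3 the difference was -1.27 with a standard error of 0.53 (limma, adjusted p = 0.16). It was called by Cyber-T (adjusted p = 5e-04), in the fit of the virgin and day 3 arrays alone (adjusted p = 0.011 from limma) and without day 7 replicate 1 (adjusted p = 0.0092 from limma). Each of these settings, Cyber-T included, estimates the spread without some or all of the day 7 arrays, among which Egr3 had an SD of 1.29 (n = 3). The other Egr3 probe stayed at 6.52 to 6.80, near background.

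Zfp36 was highest in virgin animals, lower at day 3 and lowest at day 7, with no overlap between any of the stages. It was at 13.87, 13.99 and 13.93 in the virgin animals, at 13.17, 13.50 and 13.34 at day 3 and at 12.51, 12.58 and 12.65 at day 7. At day 3 the difference was -0.60, under a fold of 2 with a standard error of 0.10 (limma, adjusted p = 0.0054), and under median scaling it was -0.12 (adjusted p = 0.61 from limma). At day 7 Zfp36 fell by 1.35, a fold of 2.55 with a standard error of 0.10 (limma, adjusted p = 7.5e-05). Median scaling gave -0.96 at day 7, just under the required fold (adjusted p = 0.003 from limma). The raw signals were 12117 to 15413 in virgin animals and 10484 to 14842 at day 3, which overlapped, and 6101 to 8041 at day 7, below all other arrays.

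Ier3 was lower at day 7 than at either other stage, by less than a fold of 2. It was at 14.52, 14.19 and 14.39 in the virgin animals, at 14.29, 14.03 and 14.27 at day 3 and at 13.36, 13.51 and 13.36 at day 7. The virgin and day 3 animals overlapped, with a difference of -0.17 (95% interval -0.43 to 0.10), and the day 7 animals lay below all of them. Against virgin animals the difference at day 7 was -0.95 with a standard error of 0.12 (limma, adjusted p = 0.00094), and it reached a fold of 2 under cyclic loess (-1.16), without virgin replicate 2 (-1.04) and without day 7 replicate 2 (-1.005). The raw signals at day 7, 11207 to 13686, were below those of the virgin arrays, 17347 to 20338, as well.

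Ier2 and Nr4a1 were not above background. The Ier2 probe lay at 6.44 to 6.61 and the Nr4a1 probe at 6.43 to 6.64 over the 9 arrays, under a signal of 100 on all of them, so that no fold is given. Nr4a1 carried an EGR site and GC boxes in its promoter window, as Klf2 and Klf4 did.

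**Figure D2:**
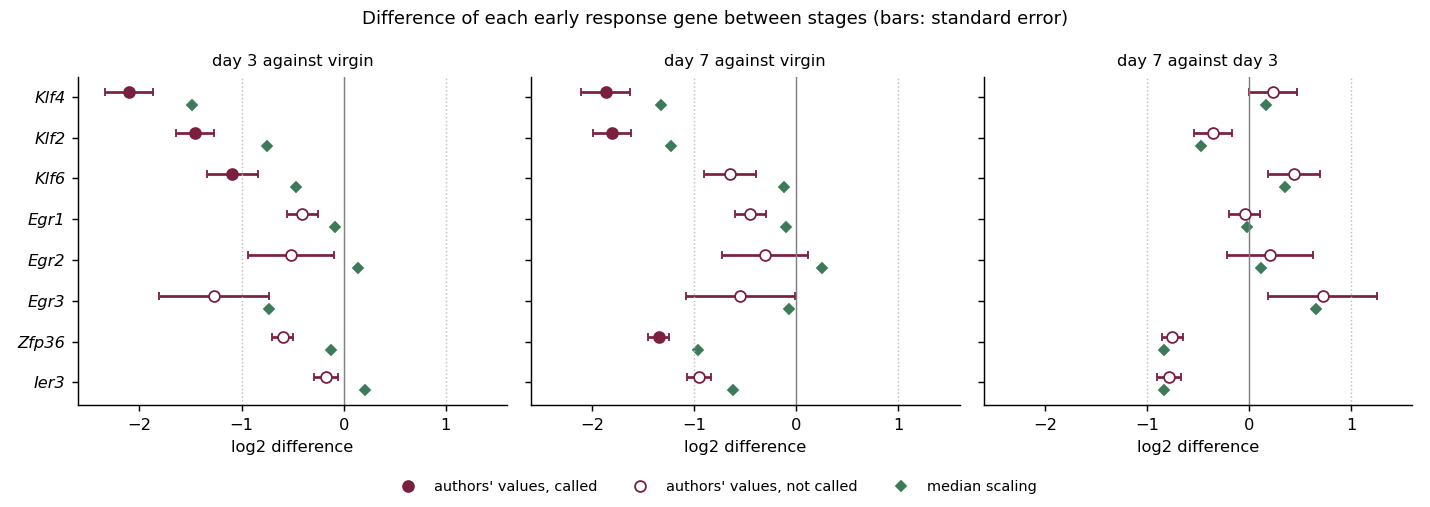
The log2 difference of each tested gene is plotted in 3 panels, each pregnant stage over virgin and then day 7 over day 3, with standard errors as bars, filled circles for called genes and diamonds for the value under median scaling. Klf4 and Klf2 lay farthest to the left at day 7, where both were called under either scaling. Diamonds lay to the right of the circles in both comparisons with virgin animals, and those of Egr2 crossed 0 at both days and that of Ier3 at day 3.

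Between the days of pregnancy, none of the 8 genes was called at day 7 against day 3 by limma or by Cyber-T, while 4.80% of all genes tested were called in either direction by limma. An unadjusted p under 0.05 was found for 2 genes, Ier3 and Zfp36. Ier3 was lower at day 7 than at day 3 by a log2 difference of -0.79 with a standard error of 0.12 (limma, adjusted p = 0.0036) and Zfp36 by -0.75 with a standard error of 0.10 (limma, adjusted p = 0.0024), both under a fold of 2. Under median scaling these were -0.83 and -0.84. For the KLF genes the differences were -0.35 for Klf2 (95% interval -0.78 to 0.07), 0.24 for Klf4 and 0.44 for Klf6, and for Egr3 the difference was 0.72 (95% interval -0.49 to 1.93). Without day 7 replicate 1, Egr3 was called as higher at day 7 than at day 3, at 1.45 (adjusted p = 0.014 from limma). Groups did not overlap for Ier3 and Zfp36, both lower at day 7, against 19.2% of all genes in that direction.

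Within a stage, the 8 genes shared part of their spread. In virgin replicate 3 all 8 lay above the mean of the virgin animals, by 0.30 on average, and in virgin replicate 1 a single gene did, with an average of -0.25. At day 7, replicate 1 had none of the 8 above the group mean, with an average of -0.39, and replicate 3 had 7 above it, with an average of 0.36. On the day 3 arrays these averages stayed within 0.02 of the group mean. Over the 9 arrays, the correlation of each gene with the mean of the others was highest for Klf2, at r = 0.922, and Klf4, at r = 0.909, and lowest for Egr2, at r = 0.566, and Ier3, at r = 0.494. Among pairs of genes it was 0.913 for Klf2 with Klf4, 0.897 for Klf2 with Zfp36 and 0.883 for Ier3 with Zfp36, against 0.049 for Egr2 with Ier3. These values describe 9 arrays that share 3 stages and 1 normalisation.

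Outside these genes, the 5 genes whose brightest probe was most like the mean profile of the 8 over the 9 arrays were Rsu1 (r = 0.993), Tmem30a (r = 0.983), Dhx58 (r = 0.982), Map2k1 (r = 0.975) and Tmem63a (r = 0.970). Map2k1 encodes MEK1, a kinase that activates ERK, Rsu1 a suppressor of RAS-dependent transformation, Tmem30a a subunit of lipid flippases and Dhx58 an RNA helicase of antiviral sensing. Rsu1 was at 7.92, 7.99 and 8.35 in the virgin animals, at 7.52, 7.48 and 7.51 at day 3 and at 7.28, 7.45 and 7.64 at day 7. Its differences were -0.58 at day 3 and -0.63 at day 7, under a fold of 2. All 5 were under a fold of 2 at day 3, at adjusted p of 0.006 to 0.02 from limma. Tmem63a was called at day 7 (-1.24, adjusted p = 0.0015 from limma), though not under median scaling. The 5 genes were picked on these arrays for likeness to a profile that was itself lower in pregnant animals. Their differences and p-values therefore follow in part from the choice and are not separate support.

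Among 13 tested relatives (other EGR, KLF, IER, NR4A and ZFP36 genes), 1 was lower and none was higher at each day, beside 3.00% and 3.72% of all genes lower, with a median of -0.21 at day 3 and -0.15 at day 7. The relative called was Klf5, a KLF of dividing epithelial cells, at 9.84, 9.59 and 9.79 in the virgin animals, at 8.16, 8.69 and 7.91 at day 3 and at 8.79, 8.20 and 8.80 at day 7. At day 3 Klf5 fell by 1.49 with a standard error of 0.22 (limma, adjusted p = 0.0029), and at day 7 by 1.14 (limma, adjusted p = 0.009), with no overlap between virgin and pregnant animals. Median scaling ended both calls (-0.83 at day 3), and the call at day 7 was also lost without day 7 replicate 2 (-0.94).

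Of 8 tested ERK and SRF factors, none was called at either day by limma or by Cyber-T on the authors' values. An unadjusted limma p under 0.05 was found for 2 at day 3 and 5 at day 7, and the share of all genes at this p is not given. The 5 at day 7 went both ways, with Srf, Map2k1 and Elk4 (-0.64) lower and Map2k2 and Mrtfb (0.59) higher. Srf was at 12.99, 12.55 and 12.68 in the virgin animals, at 11.84, 11.97 and 12.04 at day 3 and at 11.92, 12.08 and 11.76 at day 7. All pregnant animals lay below all virgin animals for Srf, by -0.79 at day 3 (adjusted p = 0.0053 from limma) and -0.82 at day 7 (adjusted p = 0.004 from limma), under a fold of 2. Map2k1 differed by -0.61 and -0.68, also under a fold of 2, and Map2k2, the other MEK gene, by 0.11 and 0.69. The other tested probe of Map2k2 was at 0.28 and 0.24. Under median scaling Map2k2 was called higher at day 7 (1.27, adjusted p = 0.0018 from limma), as were 1324 of all genes.

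Of the NAB corepressors, Nab1 was lower at day 7 alone. Nab1 was at 9.19, 8.73 and 8.99 in the virgin animals, at 9.06, 9.04 and 8.88 at day 3 and at 7.76, 7.87 and 7.61 at day 7. Virgin and day 3 animals overlapped, and all day 7 animals lay below them. At day 7 it fell by 1.22 against virgin animals with a standard error of 0.13 (limma, adjusted p = 0.00044) and was at -1.25 at day 7 against day 3 (adjusted p = 0.00079 from limma). Of 3 other tested probes of Nab1, none was called against virgin animals, at -0.95 to -0.27 at day 7, and 1 was called against day 3. Under median scaling the difference from virgin animals was -0.69 and was not called. Nab2 stayed near background, at 6.61 to 7.19, and was not called in any comparison.

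**Figure D3:**
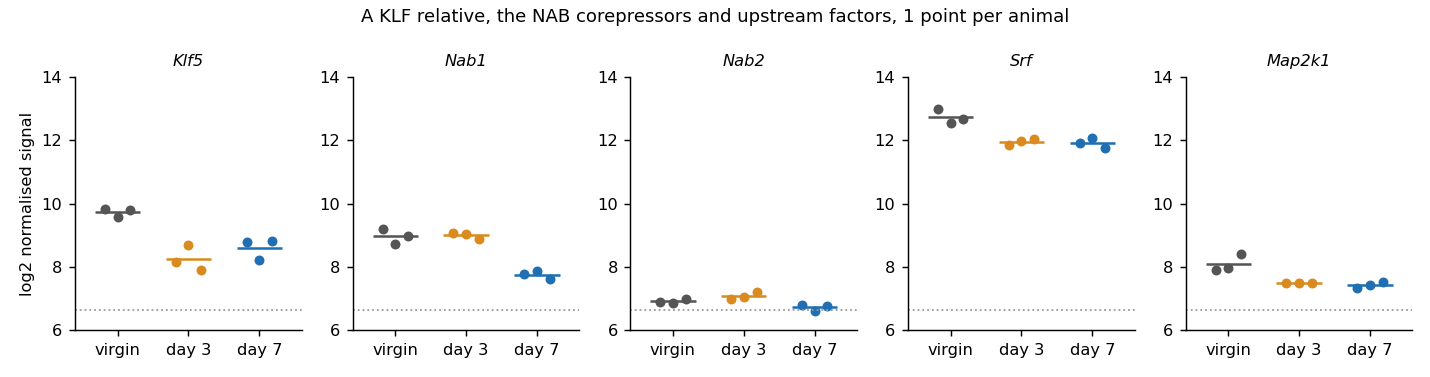
The log2 normalised signal of Klf5, Nab1, Nab2, Srf and Map2k1 is plotted for each animal, with lines at the group means and a dotted line at the background of 6.64. Klf5 and Srf lay lower in all pregnant animals than in all virgin animals, and Nab1 stood apart at day 7, at 7.61 to 7.87.

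Of 39 tested genes on a list of other immediate early genes, 13 were lower and 1 was higher at day 3, with a median of -0.80, and 19 were lower and none was higher at day 7, with a median of -0.95. Over all genes 3.00% and 3.72% were lower at these days, with medians of -0.01. With median scaling, 3 were lower at day 3 and 9 at day 7, beside 0.77% and 1.56% of all genes. Without day 3 replicate 2, 8 were lower at day 3, beside 2.74% of all genes. Socs3, a feedback inhibitor of cytokine receptors, fell by 2.15 at day 3 with a standard error of 0.23 (limma, adjusted p = 0.00062) and was at -2.0017 at day 7, close to the differences of Klf4. Hbegf, an EGF receptor ligand, was at -0.82 at day 3, not called, and fell by 1.97 at day 7 (adjusted p = 0.00082 from limma). Dusp6, a phosphatase of ERK, was at -1.73 at day 3 (adjusted p = 0.054 from limma), a call lost under median scaling and without virgin replicate 2 or 3 or day 3 replicate 2 or 3, and fell by 2.74 at day 7 (adjusted p = 0.0071 from limma). Gadd45a, a stress protein of growth arrest, was called lower at day 3 and at day 7, with differences of -1.86 (limma, adjusted p = 0.00025) and -1.91 (limma, adjusted p = 0.00016). Its relative Gadd45b fell by 2.03 at day 3 (adjusted p = 0.00048 from limma), where its other probe was at -0.33 and not called, and was at -0.41 at day 7, not called. Cebpd, a transcription factor of acute responses, was the gene that was higher at day 3, at 1.43. Between the days, 4 of the 39 were lower and 2 were higher at day 7, with a median of -0.24, where 2.17% of all genes were lower and 2.63% higher. Gadd45b was called higher at day 7 than at day 3, at 1.62 (adjusted p = 0.0019 from limma), with its other probe at 0.49 and not called. Ccn1, a matricellular protein, was lower at -1.48, and its other tested probes were at -1.06 and -0.07, of which 1 was called. The AP-1 subunit gene Fosl2 was lower at -1.30, with its other probe at 0.06 and not called, and Errfi1, an inhibitor of the EGF receptor, at -1.22.

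Of 10 tested heat shock genes of acute stress, 1 was lower at each day and none was higher, beside 3.00% and 3.72% of all genes lower, with a median of 0.02 at day 3 and -0.10 at day 7. The genes called were Dnajb1 at day 3 (-1.02, adjusted p = 0.054 from limma) and Hspb1 at day 7 (-1.33, adjusted p = 0.019 from limma). Both calls were lost under median scaling, and that of Dnajb1 also on leaving out virgin replicate 2 or 3 or day 3 replicate 1 or 2 (-0.96 to -0.79). Of 8 tested mRNAs with AU-rich elements that ZFP36 is known to destabilise, none was called at day 3 by limma or by Cyber-T, where 1 had an unadjusted p under 0.05. That gene was Cxcl2, at -0.99 (adjusted p = 0.015 from limma), close to a fold of 2, which it passed under the own quantile normalisation (-1.03), under normexp (-1.12) and without virgin replicate 1 or 2 or day 3 replicate 1 (-1.18 to -1.01). At day 7 Cxcl2 was called lower (-1.14, adjusted p = 0.0073 from limma) and none was higher, with a median of -0.43. The other tested probe of Cxcl2 was at -0.02, and the call was lost under median scaling and without day 7 replicate 2 (-0.92).

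**Figure D4:**
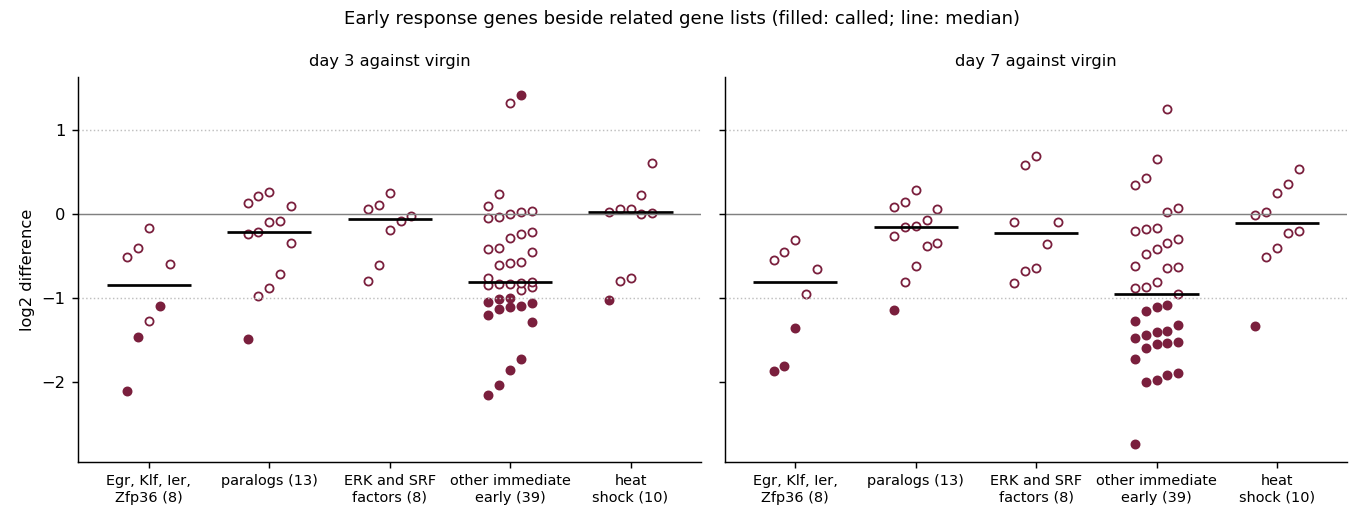
The log2 difference of each tested gene against virgin animals is plotted for the early response genes and 4 related lists, with filled points for called genes and a line at each median. The medians of the early response genes, -0.84 and -0.80, lay near those of the other immediate early genes, -0.80 and -0.95, and lower than those of the heat shock genes, 0.02 and -0.10.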

How the data were processed

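HR+ cells of 9 mice were measured on Illumina WG-6 v2 bead arrays, 1 per animal, in 3 groups taken from the labels. One deposited table holds intensity values on the linear scale before normalisation, and the other holds log2 values, which the authors obtained by quantile normalisation in Partek Genomics Suite. Quantile normalisation of the raw table computed here differed from the authors' log2 values by 0.0238 on average and 0.118 at most. The columns for detection p are empty. The program used to summarise the beads is not given in the sources used here. The 10 genes and the related lists were chosen with earlier results of these data known.

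Analysis used the authors' log2 values in R 4.3.3 with limma 3.58.1 (lmFit and eBayes on all 9 arrays, no covariates, Benjamini-Hochberg adjustment over 18707 probes with a group mean of at least 100), and the fit was tested on simulated data. A probe takes its gene from the platform annotation, where 34885 probes have 1 symbol, 18 have several and 10378 have none. If every array of 1 group is under 100, the fold is a bound against that signal. P-values set each difference against the spread within groups. With 1 array per animal, differences between animals and those from amplification and hybridisation are not separated in this spread. Genes named are the 10 genes, up to 4 of each related list with the largest difference among those called in a comparison, the NAB genes, cell type markers and the 5 nearest profiles. Srf, Elk4, Mrtfb, Map2k2 and Cebpd were chosen after their values were seen. Alternatives were the own quantile normalisation, median scaling, cyclic loess, normexp, other filters, Cyber-T (window 101, prior weight 10), separate fits of each pair of groups, array weights, an intensity trend, a replicate block, stricter or looser thresholds, any probe of a gene, and each array left out. Plots were made with matplotlib 3.10.9 (Python 3.11.15).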

Additional observations from a re-analysis of the deposited data

Results flagged for a closer look

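For Ier3 and Zfp36 the difference from virgin animals was not the same at both days of pregnancy, by the limma test of day 7 against day 3. Ier3 differed by -0.17 at day 3 and -0.95 at day 7 from virgin animals, and by -0.7859 between day 7 and day 3 (adjusted p = 0.0036). Zfp36 differed by -0.60 at day 3 and -1.35 at day 7 from virgin animals, and by -0.7527 between day 7 and day 3 (adjusted p = 0.0024). In both genes all 3 day 7 animals lay below all 3 day 3 animals, and both differences were under a fold of 2. The 6 other tested genes had an unadjusted p of 0.05 or more for this difference.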

How the results depend on the processing

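Under median scaling 1 early response gene, Klf4, was called lower at day 3, and over all genes 87 were lower and 1513 higher at day 3 and 176 lower and 1324 higher at day 7, against 338 and 317, and 419 and 399, under the authors' normalisation. Between the days it gave 346 genes lower and 275 higher at day 7, against 244 and 296. The cause was not tested. Without a minimum fold, 5 genes were called lower at day 7 and 2 at day 7 against day 3. For this setting, here and below, no share of all genes is given. Its counts therefore cannot be set beside the shares of genes called at a fold of 2 or more. Leaving out each array in turn gave 2 to 4 genes lower at day 3, 3 to 4 at day 7, and 0 to 1 called between the days, where the 1 gene was Egr3 without day 7 replicate 1. At day 7 Egr2 lay at 0.08 without virgin replicate 3, and Egr3 at 0.18 without day 7 replicate 1. No call changed direction under any alternative. Among the related lists, 22 other immediate early genes were lower at day 3 without a minimum fold, and between the days 12 were lower without a minimum fold and 2 to 6 with an array left out. Relatives called lower at day 3 numbered 0 under median scaling, 2 under the own quantile normalisation, cyclic loess or normexp, 3 with array weights or no minimum fold, and 1 to 3 with an array left out; at day 7 they numbered 0 under median scaling, 2 under cyclic loess, 5 with no minimum fold and 0 to 1 with an array left out. Of all genes, 0.77% were lower at day 3 under median scaling, 3.10% under the own quantile normalisation and 3.21% under cyclic loess. Under normexp 4.66% were lower at day 3, and with array weights 3.18%. At day 7 these shares were 1.56% under median scaling and 3.55% under cyclic loess. With an array left out they were 2.74% to 3.24% at day 3 and 3.56% to 4.19% at day 7. Replicate numbers are shared by the groups. Deviations from the group mean had r of -0.05 to 0.07 between animals of the same number and -0.07 to 0.07 between those of unlike numbers. With group means of 3 arrays, these values cannot show whether a number stands for shared handling. With the replicate block the counts were 3 at day 3, 3 at day 7 and 0 between the days, as without it, and no other call changed. The array slide could not be used as a block and was not run, because neither labels nor files used here name it. Signal limits the dim genes: Ier2, Nr4a1, the dim probes of Klf4, Klf6 and Egr3, and Nab2 lay near background, where a level cannot be read lower.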
